A study of Setaria viridis with 26 samples.

Results

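The core of the turquoise module is the set of 100 genes with the heaviest ties to other genes of that module in a co-expression network of *Setaria viridis* inflorescence primordia. Its members were chosen from the network itself. The listed weights of all edges from each turquoise gene to other turquoise genes were summed, and the 100 highest sums were kept. The core is thus 100 of 3909 turquoise genes and of 25298 genes in the network, with 3809 other turquoise genes and 21389 genes in the 25 other modules as its surroundings.

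The series compared a mutant of the grass *S. viridis*, *Svful2* (allele *brl1-ref*, NMU-induced, with a disrupted start codon in the MADS-box gene *SvFul2*), with its parental line A10.1. RNA-seq was made from pools of hand-dissected inflorescence primordia of *Svful2* plants at 9-10, 15 and 21 days after sowing (DAS) and of wild-type plants at 8-9, 10-11 and 17 DAS, with 4 replicates in each group and all plants in short days. The authors made the network from A10.1 wild-type samples, most of them from an earlier study and at further ages, so that no *Svful2* sample entered it. The network tables hold 1 weight per gene pair over all its samples and 0 columns for single samples. Expression levels, the difference between *Svful2* and wild-type, sequencing depth and replicate error were therefore not analysed here, and no value below has a test.

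In a co-expression network, genes are tied by how alike their transcript levels run across samples, and a module is a group of genes tied more to each other than to the rest. The weight used here is the topological overlap, which rises when both genes of a pair also share their other partners. Members with the highest summed weight lie closest to the common profile of the module. Ribosomes, the respiratory chain, the protein import machinery of mitochondria and the splicing machinery are assembled from many separately encoded subunits, several of which are very short proteins. Dividing meristem cells depend on all of them for growth.

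The sums that defined the core were between 625.7 and 738.6, with a median of 666.5 for the 100 core genes, against a median of 190.8 and a range of 7.64 to 625.6 for the other turquoise genes. Divided by the 3908 possible partners, the median weight per partner was 0.171 in the core and 0.0488 in the other turquoise genes. The limit of 100 did not fall in a gap. The members just inside it were Sevir.9G264650, Sevir.8G022950, Sevir.4G133501, Sevir.7G295050 and Sevir.8G203000, with sums of 629.8, 628.0, 627.7, 626.4 and 625.7. Just outside were Sevir.9G577150 at 625.6, Sevir.8G017100 at 624.8, Sevir.6G103650 at 623.6, Sevir.5G368200 at 623.3 and Sevir.5G043800 at 622.9. The heaviest edge of the whole network (0.393) tied this last gene, just outside the limit, to the first gene of the core, Sevir.3G026500.

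All 4950 pairs of core genes were listed as edges, and their weights lay between 0.216 and 0.392 with a median of 0.338. Pairs of a core gene and another turquoise gene were listed in 99.4% of cases with a median weight of 0.163. Pairs of other turquoise genes were listed in 70.5% of cases with a median of 0.0645, and pairs over the whole network in 13.6% with a median of 0.0412. These differences follow from the way the core was chosen and are given as a description. Of the 100 heaviest edges in the network, 100 joined turquoise genes and 24 joined 2 core genes.

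**Figure D1:**
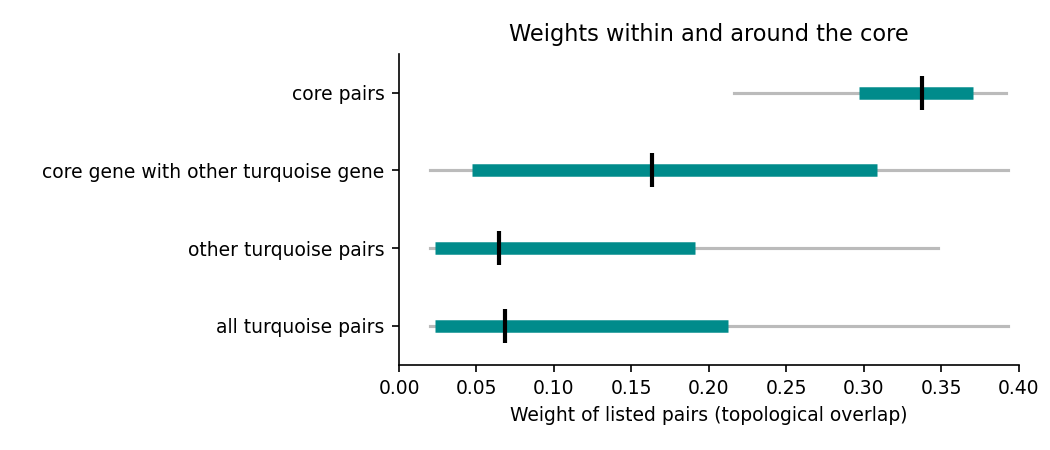
Weights of listed gene pairs (x axis, topological overlap, no unit) for core pairs, core genes with other turquoise genes, other turquoise pairs and all turquoise pairs. Thin lines run from the lowest to the highest weight, thick bars from the 5th to the 95th percentile, and black ticks mark the medians of 0.338, 0.163, 0.0645 and 0.0682.

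The same rule gave looser cores elsewhere. In the 9 modules of at least 1000 genes, the median weight among the 100 highest sums was 0.338 in turquoise, 0.226 in pink, 0.188 in yellow, 0.177 in green and in blue, 0.166 in brown, 0.150 in black, 0.125 in magenta and 0.105 in red. Turquoise is also the largest of these modules, and the part that module size plays in the weights was not tested.

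The 15 genes of highest sum were a mixture of protein import, splicing, transcription and ribosome genes with genes that had broad terms alone. Gene functions below are GO assignments by the authors or the database hit or domain given with them, since the tables do not pair these identifiers with symbols. First was Sevir.3G026500 with a sum of 738.6, annotated to the synthesis of the molybdenum cofactor, which nitrate reductase and a few other plant enzymes need. Second was Sevir.4G211800 at 734.4, which had broad terms such as nucleoside monophosphate metabolism and no hit or domain. Sevir.7G320400 (730.0) and Sevir.8G004101 (721.4), at ranks 3 and 9, carried identical terms for the small Tim complex, the chaperones that carry hydrophobic proteins across the space between the mitochondrial membranes. Sevir.2G396200 (729.4) at rank 4 held the domain of SmG, a subunit of the ring that sits on spliceosomal RNAs.

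Of the next genes, Sevir.9G068100 (728.0) was the reciprocal best hit of AT1G31335 and had membrane terms, and Sevir.3G368900 (722.8), the hit of AT5G55125, had ribosome terms. Sevir.7G293700 (721.5) at rank 8 was the hit of AT1G11475, the RPB10 subunit shared by the nuclear RNA polymerases. Sevir.4G202700 (718.7) was the hit of AT4G24920, the gamma subunit of the Sec61 channel, through which new proteins enter the endoplasmic reticulum (ER). Sevir.7G096200 (718.2) held the S1FA domain of a small plant DNA-binding protein, and Sevir.9G130500 (714.3) was of the ribosomal protein S21 family. Sevir.3G073700 (714.2) was annotated to the assembly of cytochrome c oxidase. Sevir.1G231400 (711.5) held a C2H2 zinc finger, and Sevir.7G093501 (710.3) carried terms for protein phosphatase type 2A and for negative regulation of flower development. Sevir.1G336400 (721.6), at rank 7, had no hit and broad terms alone.

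Within the core, the mean weight of a gene to the other 99 was between 0.258 and 0.363, with a median of 0.338. It ran only partly with the sum over the module (Spearman's rho of 0.68 across 100 genes, which share the same samples and the same network). Sevir.4G211800 had the highest mean and was the heaviest core partner of 34 core genes. Next came Sevir.9G263300, a ribosomal protein S28 gene (hit of AT3G10090), the heaviest partner of 24 core genes although its own sum ranked 78. The first gene, Sevir.3G026500, was the heaviest partner of 15, the SmG gene Sevir.2G396200 of 10 and Sevir.3G368900 of 8.

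The S28 gene Sevir.9G263300 was a partner in each of the 5 heaviest core pairs. Its weight was 0.392 with Sevir.3G368900, 0.391 with the S21 gene Sevir.9G130500, 0.391 with Sevir.3G026500, 0.390 with Sevir.4G211800 and 0.389 with the polymerase subunit Sevir.7G293700. A similar place was held by Sevir.2G198801, which belongs to the family of heat shock factor binding proteins, small coiled-coil proteins that restrain heat shock factors. It ranked 67 by sum (651.4) and 16 by mean weight in the core, and it was the heaviest partner of 5 core genes. Its heaviest edge, to Sevir.7G293700, was 0.388.

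At the other end stood Sevir.8G174100, which held the GTP-binding domain of the GB1/RHD3 type, the type found in proteins that shape the ER. With a mean weight of 0.258 to the rest of the core it was set apart from the next lowest, Sevir.3G165700 at 0.302 and Sevir.5G430300 at 0.304. It was a partner in each of the 5 lightest core pairs, down to 0.216 with Sevir.8G203000. Yet Sevir.8G174100 and Sevir.5G430300 were the core genes with a listed edge to all 3908 other turquoise genes. Core genes as a whole had 3866 to 3908 turquoise edges, and 616 turquoise genes had at least 3866, so the number of edges separated the core poorly from the genes below it. Sevir.5G430300 was the hit of AT1G69870, the *Arabidopsis* nitrate transporter NRT1.7, and was annotated to nitrate response and assimilation.

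**Figure D2:**
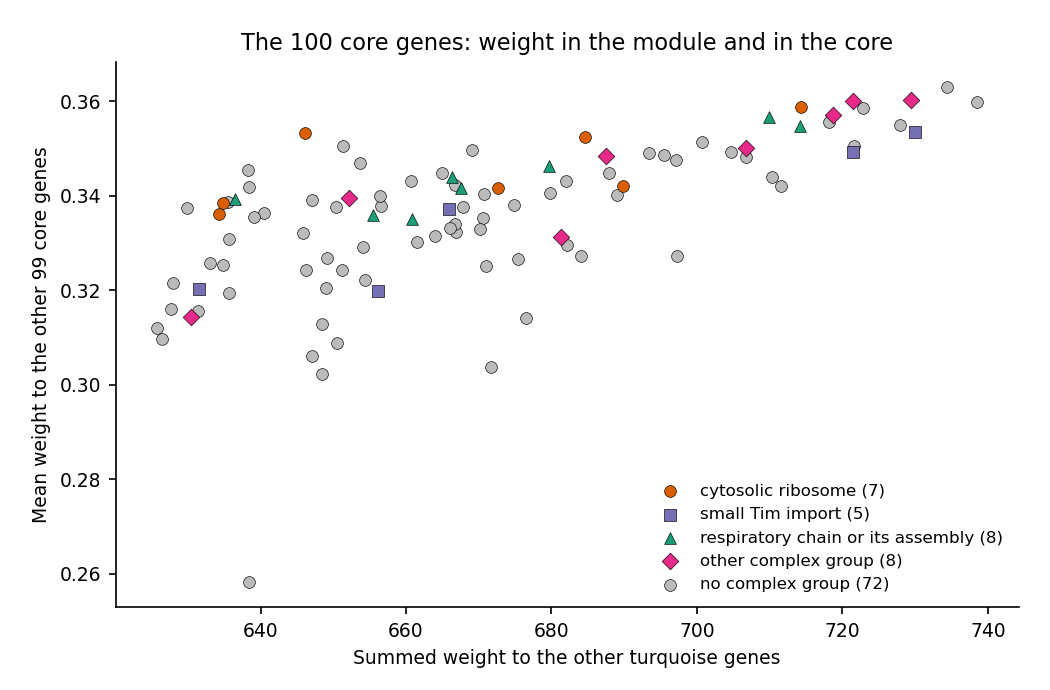
Each point is 1 of the 100 core genes, with the summed weight to turquoise genes on the x axis and the mean weight to the other 99 core genes on the y axis (both topological overlap, no unit). Colours mark the complexes described below, and the single low point at 0.258 is Sevir.8G174100.

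Ribosome genes formed the first group among the core genes. In the class ribosome and translation, 1 of 38 GO classes, there were 9 of 100 core genes, 3.02% of the other turquoise genes and 4.51% of genes in other modules. The 95% binomial interval of the core share, 4.20 to 16.4%, included the share in other modules. Small-subunit proteins were 2 genes of the S21 family (Sevir.9G130500 and Sevir.9G410800), 2 of the S28 family (Sevir.9G532300 and Sevir.9G263300) and the S30 gene Sevir.4G250900. Large-subunit proteins were Sevir.2G355100, with the L38 domain, and Sevir.9G442400, with the L44 domain. The class was completed by Sevir.3G368900 and by Sevir.4G062002, whose other terms are for transcription elongation.

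The 2 copies of a family were close to each other in the core. The S21 copies had a weight of 0.384, above 99.6% of core pairs, and the S28 copies 0.367, above 91.8%. The third S21 gene of the network, Sevir.2G439300, was in the yellow module, and its weights to the core copies were 0.162 and 0.144. The 10 pairs among the 5 small-subunit genes had weights of 0.350 to 0.391 with a median of 0.364, while the pair of large-subunit genes was at 0.328, below the median of the core. Reads of near-identical copies can be shared between them when counted, and the part of this in the weights was not tested. Most small-subunit genes lay elsewhere, since 28 of 109 in the network were in the pink module and 10 in turquoise.

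Genes of the mitochondrial inner membrane were the second group. Subunits of the respiratory chain were 6 core genes, with sums of 655.4 to 709.9. Complex I was represented by Sevir.2G331900 (679.7), Sevir.5G309600 (667.5) and Sevir.9G200000 (655.4). Complex III was represented by Sevir.4G053101 (709.9), the hit of AT5G05370, and Sevir.8G042250 (666.3), of the hinge protein family. Cytochrome c oxidase was represented by Sevir.3G349700 (660.9), of the COX5C type. The 15 pairs of these genes had weights of 0.342 to 0.371, all above the core median of 0.338. Of 128 respiratory chain genes in the network, 36 were turquoise, 21 blue and 14 pink, which is 0.921% of turquoise, 0.787% of blue and 1.07% of pink genes.

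Small Tim genes were the most concentrated of these groups. Of 11 in the network, 5 were core genes, 2 were other turquoise genes at ranks 380 and 753, and 4 were in other modules. With only assignments that name a hit or domain, 2 core genes kept a small Tim term. For Sevir.7G320400 and Sevir.8G004101 no hit or domain was given. Beside Sevir.7G320400 and Sevir.8G004101, the core held Sevir.6G232800 (666.0; hit of AT5G50810, a TIM8 gene), Sevir.9G132200 (656.2) and Sevir.1G278900 (631.5; hit of AT1G61570, a TIM13 gene). Their 10 pairs ran from 0.298 to 0.362, on both sides of the core median. The pair with identical terms was the heaviest, and the lightest joined Sevir.9G132200 with Sevir.1G278900. Sevir.9G132200, the hit of AT4G33640, carried small Tim terms among others that do not belong together, including pseudopodium and transcription terms.

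Assembly and proton transport genes completed the mitochondrial and vacuolar set. The cytochrome c oxidase assembly genes were Sevir.3G073700 and Sevir.2G060500 (636.5), which held the domain of the assembly factor Pet100, and their weight was 0.363. Sevir.7G042100 held the domain of a small subunit of the mitochondrial ATP synthase, and Sevir.4G018100 (hit of AT5G55290) that of the e subunit of the vacuolar proton pump. Their weight was 0.362.

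RNA genes were fewer. The class RNA binding and processing held 5 core genes, 2.39% of other turquoise genes and 7.05% of genes in other modules. The Sm ring was represented by the SmG gene and by the SmF gene Sevir.1G065100 (706.7; hit of AT4G30220), with a weight of 0.368 between them. Sevir.4G069000 and Sevir.4G062002 carried terms for transcription elongation by RNA polymerase II, with a weight of 0.312. Sevir.8G029000 (706.7) was annotated as a protein tag with terms for splicing, as is known of a ubiquitin-like protein of the spliceosome.

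The ER class held 6 core genes, 3.86% of other turquoise genes and 4.83% of genes in other modules. Sec61 gamma was the first by sum. Sevir.2G126400 was the hit of AT1G06515, a small subunit of serine palmitoyltransferase, which starts sphingolipid synthesis. Sevir.2G055900 was the hit of AT2G37975, of a family that acts in vesicle traffic from the ER. Sevir.8G216200 belonged to the family of RAMP4, which binds newly made proteins at the Sec61 channel. The other ER genes were Sevir.8G174100 and the L38 gene Sevir.2G355100, which is a ribosomal protein. Outside the class, Sevir.8G113400 held the domain of DPM2, which steadies the enzyme that makes a mannose donor at the ER membrane.

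Regulators of transcription were also looked up. A single core gene, Sevir.3G165700 at rank 73, was annotated to transcription factor activity, against 2.63% of other turquoise genes and 3.95% of genes in other modules. It had no hit or domain. For regulation of transcription in a wider sense the values were 9 core genes, 12.9% of other turquoise genes and 14.6% of genes in other modules. With 100 genes, a gap of a few percentage points is a few genes. In the class of protein kinases there was 1 core gene, against 5.85% and 7.14%. When turquoise genes were ranked by number of edges instead, the first 100 held 21% in regulation of transcription and 8% in protein kinases, above the other modules in both. The class nucleus held 7 core genes, against 16.6% of other turquoise genes and 25.1% of genes in other modules. Outside it, Sevir.2G396200 and Sevir.1G065100 carried a nucleolus term and Sevir.7G293700 terms for nuclear RNA polymerases. How many genes outside the core were left out in this way was not counted.

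Each class is a short list of GO terms matched as assigned, without the wider or narrower terms of the GO graph. No core gene was in the classes of cell cycle and division, DNA replication and repair, the cytoskeleton, photosynthesis, secondary walls, light and the circadian clock, abiotic stress, auxin, gibberellin, abscisic acid or jasmonic acid. Apart from abiotic stress, these classes held small shares in other modules as well, between 0.575% for gibberellin and 2.92% for cell cycle and division. A core of 100 genes can hold few or none of a class at those shares. Abiotic stress was a larger class, with 0 core genes against 4.46% of other turquoise genes and 7.77% of genes in other modules. Related terms outside those lists were seen, as sister chromatid cohesion for Sevir.4G304901, of the SMC family of chromosome proteins, nucleotide-excision repair for Sevir.8G249900 and cytoskeleton for Sevir.9G368800. Next to abiotic stress, Sevir.2G316100 carried response to abiotic stimulus, and Sevir.2G331900 and Sevir.8G042250 carried response to cadmium ion. The empty class is thus a result for its listed terms alone. The class of flower, stamen and ovule development was also empty (3.57% in other modules), although Sevir.7G093501 carried the flower development term given above. In all, 5 of 38 classes had a higher share in the core than in other modules. They were ribosome and translation, the ER, chromatin (3 core genes, 1.91% in other modules), lipid metabolism (3 and 2.52%) and autophagy (1 and 0.449%). Core genes had fewer GO terms (median 7.5 against 11), and the part of this in the shares was not tested. With only assignments that name a hit or domain, chloroplast, mitochondrion, vacuole, cell wall, extracellular region and pollen were higher in the core. Chromatin, lipid metabolism and autophagy were then lower.

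Some classes held genes that are known for another role. The 4 core genes of the cell wall class were the S21 and S28 ribosomal proteins. The core genes of the class vesicle traffic and Golgi were the COX5C gene and the heat shock factor binding protein. Of 3 core genes in the class ubiquitination and proteasome, Sevir.2G331900 and Sevir.8G042250 were respiratory chain subunits. The class mitochondrion held 8 core genes, 4.65% of other turquoise genes and 9.21% of genes in other modules, and the respiratory chain and small Tim genes were filed under membrane and complex terms instead.

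**Figure D3:**
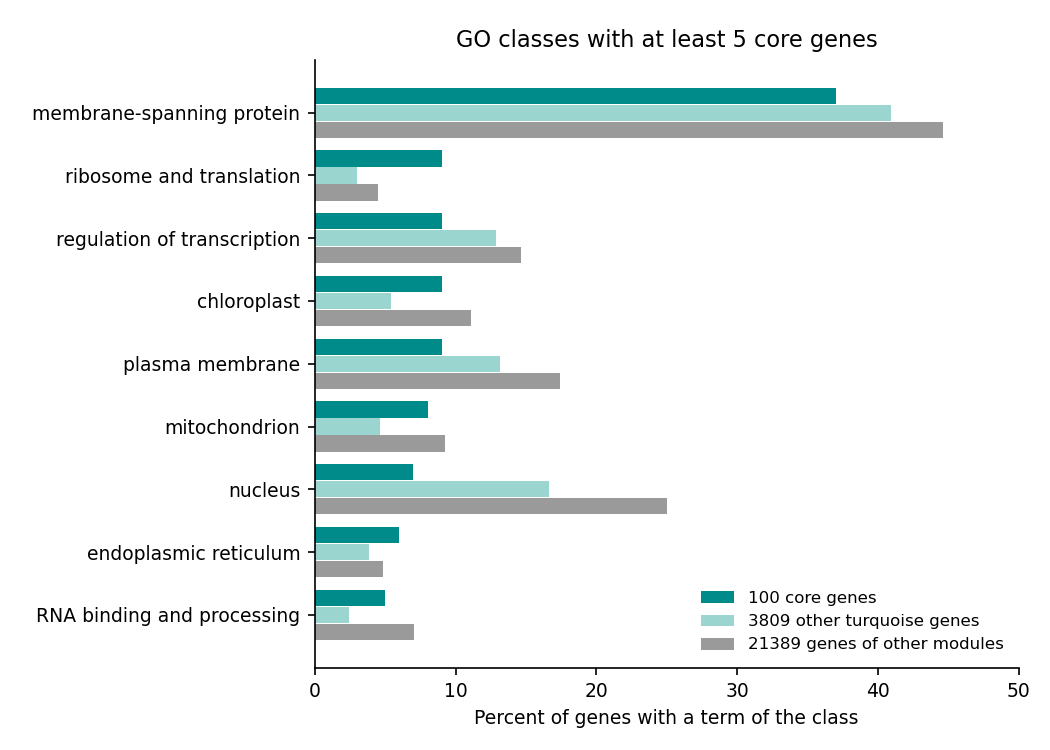
Percent of genes with a GO term of each class (x axis) for the core genes, the other turquoise genes and the genes of other modules, for the 9 classes with at least 5 core genes. The core bar is the longest of its 3 bars for ribosome and translation (9%) and the ER (6%), and nucleus is the class with the widest gap below other modules (7% and 25.1%).

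The complexes named above form 10 groups that were written after the terms of the core genes had been seen, so their share in the core is a consequence of that choice. They held 28 core genes, 2.47% of other turquoise genes and 2.54% of genes in other modules. The ranks below the core were not used to write them, but they come from the same sums that chose the core. The shares along the ranking are therefore a description and no independent support. There the share was 13% at ranks 101 to 200, 9% down to rank 500, 3% from there to rank 1000, 2% from there to rank 2000 and 0.995% at the lowest ranks. The share thus fell along the ranking to below that of other modules. The same groups made up 27% of the 100 highest sums in pink, 16% in blue, 13% in yellow and 11% in green. In pink, 30 of those 100 genes were in the class ribosome and translation, against 9 in the turquoise core.

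The 28 genes of the complexes had a median mean weight of 0.343 to the core, against 0.336 for the 72 others. A reciprocal best hit was given for 17 of the 28 and for 15 of the 72. The other core genes were thinly annotated. Of all 100, 32 had a reciprocal best hit in another species and 44 had a hit or a domain, which leaves 56 genes with neither. The 29 core genes with a hit in *Arabidopsis* are among the 32. Other turquoise genes were alike in this, with 27.4% and 44.1%, and genes of other modules had 49.1% and 67.9%. The median number of GO terms was 7.5 in the core, 9 in other turquoise genes and 11 in other modules, and every gene had at least 1.

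Locus numbers in this genome mostly run in steps of 100. A number between the steps was carried by 29 core genes, 26.2% of other turquoise genes and 10.3% of genes in other modules. Of these 29 core genes, 2 had a reciprocal best hit and 4 were in a complex group. Among the 100 highest sums of other large modules the share was 22% in yellow and 1 to 7% in the other 7. The turquoise module as a whole and its core were thus alike in this property, which the choice of members did not use.

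**Figure D4:**
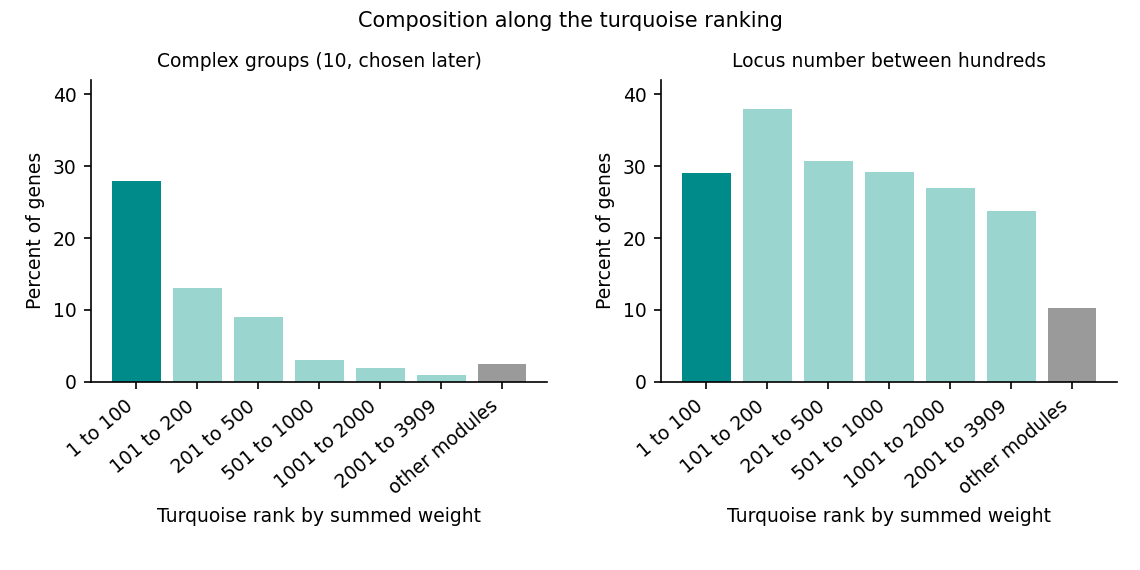
Percent of genes in the 10 complex groups (left) and with a locus number between the steps of 100 (right), both on the y axis, for ranges of the turquoise rank by summed weight and for genes of other modules. The first falls from 28% to 0.995% along the ranking, and the second stays between 23.7% and 38% in turquoise, above the 10.3% of other modules.

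The core genes were on all 9 chromosomes, as read from their identifiers, since the tables give no coordinates. Chromosome 8 held 17% of them, against 6.98% of other turquoise genes and 5.47% of genes in other modules. Chromosome 5 held 6%, against 14.2% and 14.4%, and chromosome 6 held 4%, against 7.38% and 7.02%. Among the 200 highest sums, the share on chromosome 8 was lower, at 11.5%. The 17 core genes of chromosome 8 had a median mean weight of 0.327 to the core, against 0.339 for the other 83, and 2 of them were in a complex group. A single pair of core genes, Sevir.8G249900 and Sevir.8G249950, was next to each other in locus order, with a weight of 0.338 at the middle of the core.

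Core genes were also tied to other modules. Of their summed weight over the whole network, 33.2 to 43.6% led outside turquoise, with a median of 35.7%, against a median of 30.9% and a range of 9.81 to 82.8% for the other turquoise genes. The main recipient was the yellow module for each of the 100 core genes. It took 12.9 to 23.2% of a core gene's weight, with a median of 17.2%, against a median of 10.8% for the other turquoise genes, and 88.8% of all pairs of a core and a yellow gene were listed. Red took a median of 4.33% of a core gene's weight (2.36% for other turquoise genes), brown 3.90% (4.84%) and midnightblue 2.98% (2.61%). For greenyellow the medians were 1.01% and 0.0913%.

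Hardly any weight led from the core to pink or blue, the modules with many of the ribosome and respiratory chain genes. Pink took 0.0810% of the summed weight of the core and blue 0.134%. Other turquoise genes were alike in this. Their median shares were 0.0902% to pink and 0.129% to blue, against core medians of 0.0804% and 0.133%. No core gene had a listed edge to magenta, royalblue or darkturquoise, and purple had 1 such edge. In other turquoise genes the median share to each of these modules was 0% as well. Yellow thus took 17.5% of the summed weight of the core, and all modules other than turquoise together took 36.3%. Across the 100 genes of this 1 network, the share outside ran with the shares to yellow (Spearman's rho of 0.88) and to red (0.54). It ran against the share to brown (-0.76). Each of these shares is itself part of the share outside. With the sum, the share outside hardly ran at all (0.06).

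The highest shares outside turquoise were 43.6% in Sevir.8G203000, 42.7% in Sevir.6G138851, 41.0% in the TIM13 gene Sevir.1G278900, 40.4% in Sevir.3G079700 and 40.2% in Sevir.8G249950. Sevir.3G079700 was the hit of AT2G46330, an arabinogalactan peptide of the cell surface. Their shares to brown were 2.38 to 3.02%, against a core median of 3.90%. The lowest shares outside were 33.2% in the Pet100 gene Sevir.2G060500, 33.2% in the SMC gene Sevir.4G304901 and 33.7% in Sevir.9G282533 and in Sevir.1G145066. Next was Sevir.3G169500 at 33.8%. The lightest core gene by core weight, Sevir.8G174100, had the lowest share to yellow (12.9%) and the highest to brown (6.82%).

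**Figure D5:**
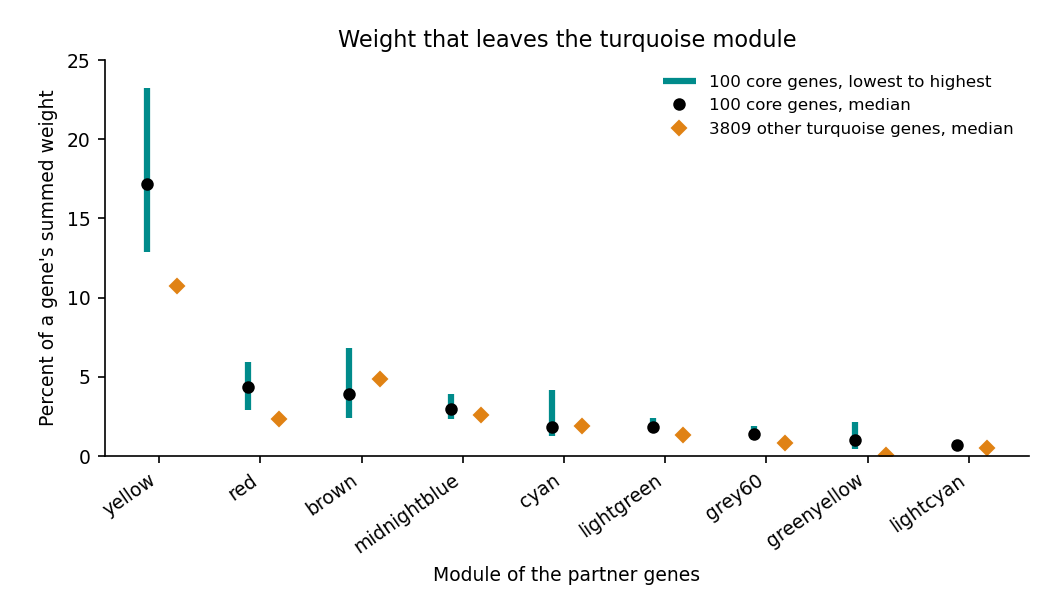
Percent of a gene's summed network weight (y axis) that led to each of 9 other modules (x axis). Teal lines run from the lowest to the highest core gene, black dots are the core medians and orange diamonds the medians of other turquoise genes, with yellow at 17.2% and 10.8%.

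No core gene is among the 29 genes that were listed because the study names them by identifier, of which 28 are in the network. Of these 28, 9 had a listed edge to all 100 core genes, 2 to some of them and 17 to none, *SvFul2* among the last. Such edges are common, since a core gene had a median of 8793.5 listed edges in the network of 25298 genes. The counts alone therefore do not set the named genes apart, and the same counts over all network genes were not made. The heaviest ties were to Sevir.7G048300, a gene of the red module, with weights of 0.163 to 0.263 and a median of 0.203. Next was Sevir.2G174301, a turquoise gene, with a median of 0.145. The study lists both for missense changes in its pooled mapping sample that it did not find by sequencing the *brl1* mutant genome.

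Flowering genes had lighter ties to the core. Median weights to the 100 core genes were 0.103 for *SvMtf1*, related to *MOTHER OF FT AND TFL1* of rice, 0.0796 for *SvMads37.1*, 0.0704 for *SvMads5* and 0.0697 for the florigen homolog *SvFtl1*. These 4 are turquoise genes at ranks 1920, 2631, 2844 and 2891. Lower medians were found for *SvMads34* (0.0444) and *SvMads56* (0.0355) of the cyan module and for *SvFul3* (0.0360) of brown. *SvFul1* was tied to 63 core genes, with a median of 0.0245 over those.

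For 8 of the 11 listed genes with any edge to the core, the heaviest core partner was Sevir.8G174100, the GTPase that was lightest within the core. Its weight was 0.190 to *SvMtf1*, 0.149 to *SvMads37.1*, 0.142 to *SvMads5* and 0.126 to *SvFtl1*. It was 0.111 to *SvMads34*, 0.0950 to *SvMads56*, 0.0548 to *SvFul3* and 0.0547 to *SvFul1*. These edges were singled out after the values were seen. How often Sevir.8G174100 is the heaviest core partner over all network genes was not counted. The count of 8 therefore does not set the listed genes apart.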

How the data were processed

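Deposited tables were used, namely a node list, an edge list and a gene annotation. The authors mapped reads with Salmon (version 0.13.0 per the submitters' processing notes), transformed the estimated counts and made a signed WGCNA network by biweight midcorrelation over wild-type samples. Each deposited edge carries a score (its topological overlap), listed from 0.02 upwards (43548751 edges), so an unlisted pair is low but unknown. Modules are labels given by the authors. GO terms were assigned by the authors with GOMAP, and 678 assignments marked NOT were left out.

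Sums, shares and counts were computed with Python 3.11.15, numpy 2.4.6, pandas 2.3.3 and matplotlib 3.10.9. The sums were checked on simulated data. The members and lists were chosen with earlier results of these data known. Named genes are the 15 highest sums, members with transcription factor activity, the 5 heaviest pairs, the 5 highest and 5 lowest shares outside turquoise, 5 ranks on each side of the limit and up to 3 per class. Further members were named after their terms or values were seen. The tables held 0 per-sample columns, so depth and replicate error are unknown here. The 2 DNA samples of the mutant, Svful2 expression, sequences and gene lengths were not analysed here.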

Additional observations from a re-analysis of the deposited data

How the results depend on the processing

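The core depended on summing weights. Ranked by number of edges, the top 100 shared 8 genes with it, since those numbers are near their maximum, and their median rank by sum was 310.5. By that ranking, ribosome and translation held 1% of genes. Summing over all modules kept 81 members, and weights of at least 0.04 or 0.08 alone kept 99 each. With the 200 highest sums, the median core pair weight was 0.314. The median share outside turquoise was 55.8% by number of edges and 32.9% with weights of at least 0.04. Over functional classes and complex groups, 192 of 240 alternative shares stayed within the binomial interval of the main share and 48 did not. Of the 192, 48 came from keeping only genes with a GO term, which could change nothing because every gene had a term. In 38 of the 240, the core moved to the other side of the share in other modules. The cause was not tested. Among them, by number of edges, regulation of transcription held 21% of genes (14.6% in other modules) and protein kinases 8% (7.14%). Further, the ER fell to 2% in the 50 highest sums, below 4.83% in other modules, and 4.50% in the 200 highest. With assignments that name a hit or domain, mitochondrion (7%, 4.70% in other modules) and chloroplast (9%, 5.46%) were higher in the core. With the same assignments, the small Tim and the small ribosomal subunit groups each fell from 5% to 2% of core genes. The large ribosomal subunit and transcription elongation groups fell from 2% to 0%. Every other complex group kept at least 1%. Neighbouring core pairs were 3 within 1000 locus numbers and 2 in locus order among the 200 highest sums. Promoter motifs and protein lengths were not run. Each weight is 1 value over all network samples, so no replicate could be left out. No paired analysis was possible because each gene pair has 1 weight over all samples.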
